A study of Saccharomyces cerevisiae with 12 samples.

Results

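The flocculin genes FLO1, FLO5, FLO9 and FLO11 of Saccharomyces cerevisiae were examined for acetylated histone H4 (AcH4), as measured by chromatin immunoprecipitation (ChIP) on 2-color tiling arrays. They are 4 of 5962 nuclear genes with a systematic name that the array probes by the rule used here: every non-control probe whose center lay inside the gene or in the 3 kb upstream of it was taken. This gave 72 of the 41480 probes on the nuclear chromosomes. There were 20 at FLO1 (7 in the gene and 13 upstream), 14 at FLO5 (2 and 12), 17 at FLO9 (5 and 12) and 21 at FLO11 (10 and 11). The study compared 4 strains, with 3 arrays each, and each array came from 1 biological repeat. The rco1Δ mutant lacks Rco1, a subunit of the Rpd3S histone deacetylase complex, and carried the KANMX6 marker in place of the gene. The rsc1Δ and rsc2Δ mutants each lack a bromodomain protein of the RSC chromatin remodeling complex, and their full genotypes are not given in the sources used here. The wild type strain was BY4741, a haploid laboratory strain (MATa his3Δ1 leu2Δ0 met15Δ0 ura3Δ0). All strains were grown in YPD, the antibody was raised against acetylated H4, the immunoprecipitated DNA (IP) carried Cy5 and the input DNA of the same cells carried Cy3. Both DNAs were amplified linearly before labeling. The labels do not say whether more than 1 isolate of a deletion was used, and RNA was not measured on these arrays.

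Flocculins are adhesins that are anchored in the cell wall. FLO1, FLO5 and FLO9 encode closely related lectin-like proteins that bind mannose chains on neighboring cells and make cells clump, while FLO11 encodes a more distant relative that serves in invasive and filamentous growth and in adhesion to surfaces. The genes contain tandem repeats, which FLO1, FLO5 and FLO9 partly share, and lie toward the ends of their chromosomes. FLO11 has an unusually long promoter on which many activators and repressors act. Laboratory strains of the S288C background, to which BY4741 belongs, carry a mutation in the activator gene FLO8, and flocculin genes are little expressed in them. The Rpd3S complex removes acetyl groups from histones in transcribed regions that carry Set2-dependent methylation, whereas RSC moves and removes nucleosomes.

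The value used was the log2 ratio of IP over input, with the median of each array at 0, so a region at 0 had the ratio of a typical probe. The spread of this ratio was narrower in the rco1Δ mutant than in the other strains, with a median absolute deviation of 0.53 to 0.69 on the rco1Δ arrays, 1.24 to 1.29 on the rsc1Δ arrays, 1.23 to 1.29 on the rsc2Δ arrays and 1.08 to 1.14 on the wild type arrays. In each mutant 1 stretch of 7 to 10 neighboring probes, on the chromosome of the deleted gene, lost its input signal, so the strain labels were borne out. Rco1Δ replicate 3 was the dimmest array, with 79.0% of the nuclear probes well above background in the input channel, followed by rsc1Δ replicate 3 with 81.1%. On each of these arrays 12 flocculin probes were not well above background in input. In IP 7 were not on the rco1Δ array and 12 on the rsc1Δ array. No rco1Δ array shared a scan with another strain, so strain and scan cannot be told apart for that mutant. On all 12 arrays, 42 of the 72 flocculin probes gave IP and input signals well above background.

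The arrays covered the flocculin genes thinly. The probe density was 1.52 per kb inside FLO1, 0.62 inside FLO5, 1.26 inside FLO9 and 2.44 inside FLO11, against 4.33, 4.00, 4.00 and 3.67 in their upstream regions and 3.48 over the whole array. Each gene held a long stretch without probes. In FLO1 it ran from 785 to 2892 bp after the start codon, in FLO11 from 938 to 2671 bp, in FLO9 from 774 to 2528 bp and again beyond it, and in FLO5 no probe lay between 922 bp and the far side of the gene. Gaps of that length made up 0.157 to 0.260% of all gaps between neighboring probes. The values given for FLO1 and FLO11 are therefore those of the parts on both sides of the gap, for FLO9 those of its first kb and of 1 probe at 2528 bp, and for FLO5 those of its first kb. The probes are placed on the sacCer1 assembly, as the array headers give them, whereas the gene bounds came from the R64 assembly and were applied without conversion. Probes within a few base pairs of a start codon may lie on its other side. Whether a probe also binds the shared repeats of another flocculin gene was not tested.

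In the wild type strain all 4 genes were poor in AcH4. The gene mean was −1.24 ± 0.17 in FLO1, −1.31 ± 0.06 in FLO11, −2.05 ± 0.09 in FLO9 and −2.24 ± 0.34 in FLO5 (log2 ratio, SD, n = 3 each). These levels lay at percentiles 11.4, 10.6, 4.41 and 3.48 of 2900 windows of 4 kb that tile the rest of the nuclear genome. The arrays of FLO1 and FLO11 overlapped, as did those of FLO9 and FLO5, while the first pair lay above the second on every wild type array. The upstream regions spread over a wider range, with 0.21 ± 0.07 at FLO9, −0.09 ± 0.28 at FLO5, −0.64 ± 0.05 at FLO1 and −1.59 ± 0.20 at FLO11. The FLO9 and FLO5 upstream regions overlapped, and the other neighbors in that order did not. The FLO11 upstream region was thus as poor in AcH4 as the genes, whereas upstream of the other 3 genes AcH4 fell toward the start codon. At FLO9 the wild type mean was 1.36 between 3 and 2 kb upstream, 0.78 in the next kb and −1.52 in the last kb, and at FLO5 it was 1.44, −0.64 and −0.98. Only the last probe of FLO1, 4254 bp after the start codon, was rich in AcH4 in the genes of the wild type strain, with 1.47, 1.52 and 1.77 on its 3 arrays.

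**Figure D1:**
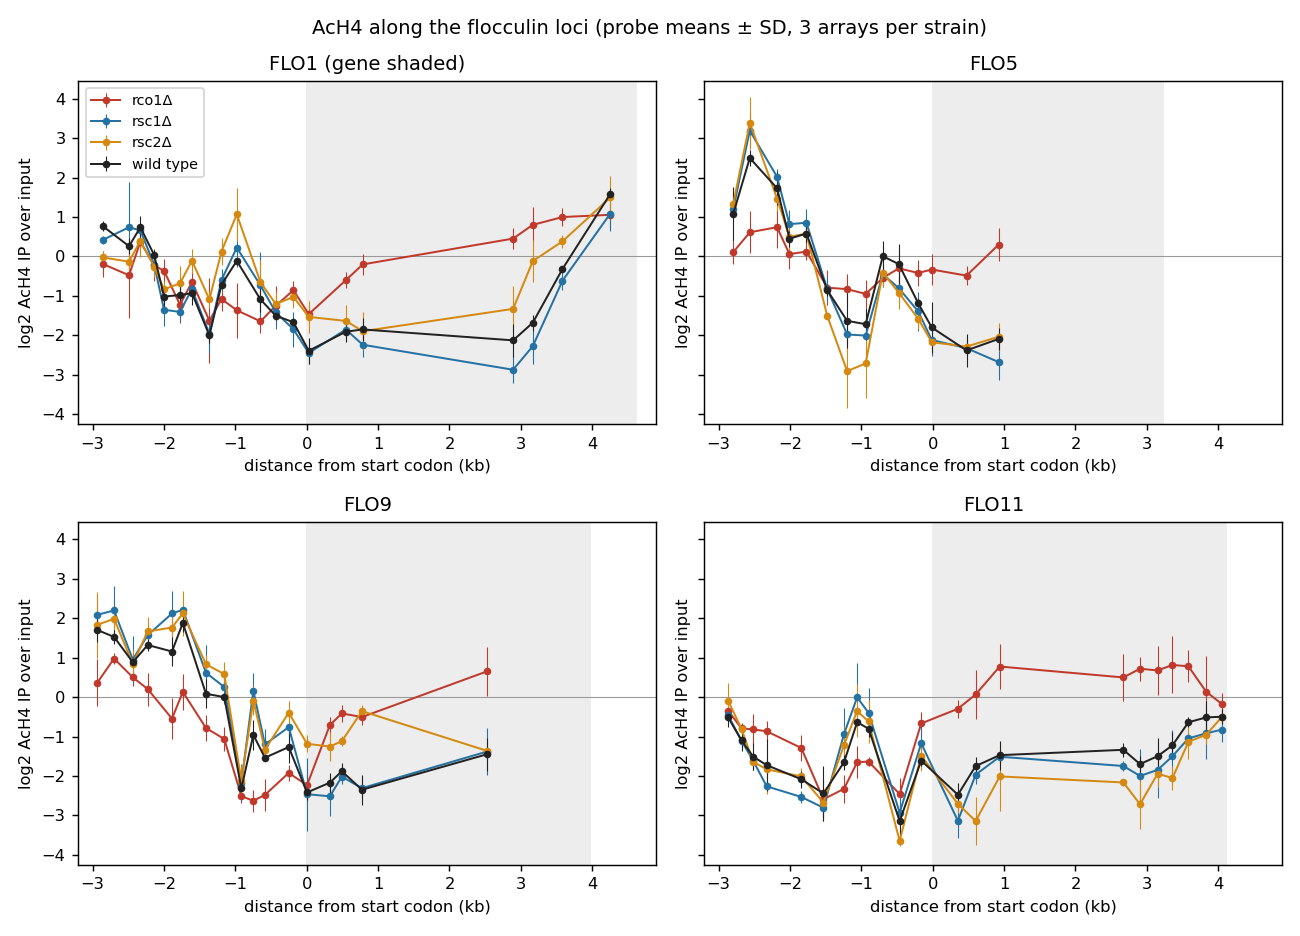
Mean log2 ratio of AcH4 IP over input at each probe of FLO1, FLO5, FLO9 and FLO11 against the distance from the start codon in kb, for rco1Δ, rsc1Δ, rsc2Δ and wild type (bars: SD of 3 arrays; the gene is shaded). Inside the genes the rco1Δ line lies above the wild type line at every probe except the last of FLO1, and lines across gaps without probes join neighboring probes only.

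In the rco1Δ mutant the AcH4 ratio of IP over input was higher inside all 4 flocculin genes. FLO1 read 0.35, 0.16 and −0.06 on the rco1Δ arrays, against −1.32, −1.35 and −1.05 on the wild type arrays. FLO5 read 0.15, −0.29 and −0.14 on the rco1Δ arrays, against −2.49, −2.37 and −1.85 on the wild type arrays, from only 2 probes. Every rco1Δ array lay above every wild type array at both genes. FLO9, the lowest of the 4 genes in the mutant, read −0.33, −0.73 and −0.86 on the rco1Δ arrays, against −2.14, −1.96 and −2.05 on the wild type arrays. FLO11 read 0.93, 0.04 and 0.22 on the rco1Δ arrays, against −1.31, −1.25 and −1.37 on the wild type arrays. Here, too, the rco1Δ arrays lay wholly above. The differences in log2 ratio were 1.39 ± 0.18 at FLO1 (SE, adjusted p = 4.87e-06), 2.14 ± 0.17 at FLO5 (adjusted p = 1.79e-08), 1.41 ± 0.13 at FLO9 (adjusted p = 1.84e-07) and 1.71 ± 0.21 at FLO11 (adjusted p = 2.80e-06), by limma fitted over the 8 flocculin regions and the 2900 windows with Benjamini-Hochberg adjustment. The exact permutation test of each region gave p = 0.1, the smallest that 3 arrays against 3 allow. In this comparison 30.9% of all regions and windows were called higher and 40.0% lower at an adjusted p under 0.05, and the median window differed by −0.12. The 4 gene differences lay at percentiles 94.6 to 98.2 of the windows, which were not matched to the genes in probe number. In log2 IP alone, with the array median at 0, the strains overlapped at FLO1. It read −1.08, 0.18 and 0.14 on the rco1Δ arrays, against −0.80, −0.66 and −0.60 on the wild type arrays. In FLO5, FLO9 and FLO11 every rco1Δ array lay above every wild type array in IP. At FLO1, with the mean wild type input in place of each array's own, the difference in ratio was 0.45 (limma adjusted p = 0.177, with 6.20e-07 to 0.177 over the alternatives). At FLO9 plain background subtraction gave 0.85 (adjusted p = 0.112, with 1.43e-07 to 0.112 over the alternatives). Loess after normexp made the differences smaller, with 0.79 at FLO1, 0.87 at FLO5 and 0.68 at FLO11, and normexp alone gave 1.26 at FLO5 and 0.91 at FLO11. FLO9 differed by 0.52 in the deposited table and by 0.81 with equal spread, and FLO1 by 2.22 with medians over probes.

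**Figure D2:**
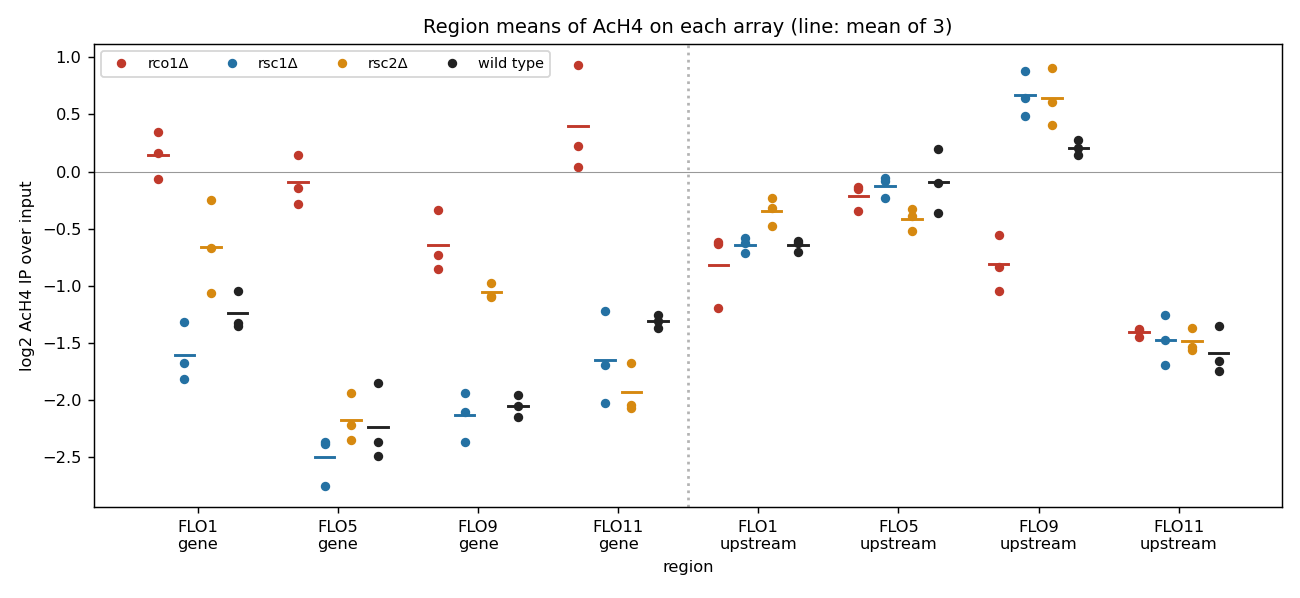
Mean log2 ratio of AcH4 IP over input in each gene and in the 3 kb upstream of it on each array, for rco1Δ, rsc1Δ, rsc2Δ and wild type (points: arrays; line: mean of 3). The rco1Δ arrays lie above the wild type arrays in all 4 genes and below them upstream of FLO9, and the rsc2Δ arrays lie above the wild type arrays in FLO9.

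Single probes showed where in the genes the difference lay. Of the 24 probes inside the genes, 20 were called higher in the rco1Δ mutant and 0 lower, against 26.0% and 28.1% of all nuclear probes. The median difference of the 24 was 1.82, against −0.24 for all probes. The 4 probes that were not called stood at the edges of the genes: the last probe of FLO1 (−0.53), the first of FLO9 at the start codon (0.18) and the last pair of FLO11 (0.65 and 0.31). In FLO1 the largest difference was at 2892 bp after the start codon (chr1:206273-206317 of sacCer1), where the ratio was 0.77, 0.30 and 0.28 on the rco1Δ arrays, against −2.54, −2.14 and −1.70 on the wild type arrays (difference 2.58 ± 0.33 SE, limma adjusted p = 1.31e-05). Toward the start codon of FLO1 the difference became smaller, with 1.65, 1.31 and 0.93 at 785, 549 and 28 bp. In FLO5 the larger of 2 differences was 2.39 ± 0.32 at 922 bp (chr8:526286-526343), where all 3 rco1Δ arrays, at 0.76, 0.16 and −0.03, lay above the wild type arrays at −2.23, −2.29 and −1.76. The other FLO5 probe, at 473 bp, differed by 1.90, and its IP signal was well above background on only 1 of the 3 wild type arrays. In FLO9 the largest difference was at 2528 bp (chr1:25415-25465), the only probe beyond the first kb of that gene, with 1.35, 0.41 and 0.20 on the rco1Δ arrays, against −1.93, −1.21 and −1.21 on the wild type arrays (2.10 ± 0.36 SE, limma adjusted p = 1.60e-04). In FLO11 it was at 2904 bp (chr9:390744-390798), with 1.07, 0.60 and 0.50 on the rco1Δ arrays, against −1.87, −1.49 and −1.73 on the wild type arrays (2.42 ± 0.36 SE, limma adjusted p = 5.44e-05). FLO11 had a plateau rather than a slope: its 7 probes between 352 and 3359 bp differed by 1.81 to 2.42. Neighboring probes share DNA fragments and are not independent.

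Upstream of the genes, 6 of the 48 probes were called higher in the rco1Δ mutant and 14 lower. These are shares of 12.5% and 29.2%, against 26.0% and 28.1% of all probes, so the share called lower was near that of the whole array. FLO9 was the only locus whose whole upstream region was called, with −1.05, −0.83 and −0.56 on the rco1Δ arrays, against 0.21, 0.27 and 0.14 on the wild type arrays (difference −1.02 ± 0.14 SE, limma adjusted p = 1.14e-05). No rco1Δ array reached a wild type array there, and 8 of its 12 probes were called lower. The largest fall was at 1736 bp upstream (chr1:29675-29733), where the ratio was −0.39, 0.45 and 0.34 on the rco1Δ arrays, against 1.71, 2.14 and 1.81 on the wild type arrays. With the mean wild type input in place of each array's own, the FLO9 upstream difference was −0.28 (adjusted p = 0.199, with 5.51e-06 to 0.199 over the alternatives), and it was −0.51 with loess, −1.66 in the deposited table and −1.71 with equal spread. The regions upstream of FLO1 (−0.17 ± 0.13, adjusted p = 0.254), FLO5 (−0.12 ± 0.12, adjusted p = 0.385) and FLO11 (0.18 ± 0.12, adjusted p = 0.188) were not called (SE, limma), and their arrays overlapped between the strains. FLO1 upstream was called lower with the deposited table (−0.67, limma adjusted p = 0.00986) and with equal spread (−0.81, limma adjusted p = 3.41e-04). Over the alternatives its limma adjusted p was up to 0.942. The arrays of the deposited table also had near-equal spread (median absolute deviation 0.81 to 0.89), so that table and the equal-spread setting are not independent. FLO5 upstream was called lower with the deposited table (−0.44, adjusted p = 0.0265), loess (−0.29, adjusted p = 0.0176) and only the probes well above background (−0.62, adjusted p = 7.92e-04), with adjusted p up to 0.894. With every array at the same spread, the split over all 72 probes, 26 higher and 14 lower, became 18 and 21 (against 21.5% and 22.3% of all probes), and in the deposited table of ratios it became 10 and 19 (against 13.1% and 19.3%).

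Within these 3 regions single probes were called in both directions. At FLO5 the largest fall was at 2564 bp upstream (chr8:522799-522858), with 0.22, 0.40 and 1.22 on the rco1Δ arrays, against 2.26, 2.64 and 2.58 on the wild type arrays (−1.88 ± 0.36 SE, limma adjusted p = 4.45e-04). At the start codon of FLO5, 14 bp upstream, the ratio was instead higher, with −0.25, −0.77 and 0.02 on the rco1Δ arrays, against −1.38, −2.55 and −1.47 on the wild type arrays (1.47 ± 0.34 SE, limma adjusted p = 0.00173). The IP signal of that probe was well above background on 1 of the 3 wild type arrays. The last kb before FLO5 alone differed by 0.47 (adjusted p = 0.0235). At FLO1 the probe 186 bp upstream was called higher (0.81), and those at 980 bp (−1.25, from 2 wild type arrays, since the spot of wild type replicate 1 was flagged as an outlier and left out) and 2860 bp (−0.96) were called lower. At FLO11 the 3 probes called higher lay at 2327, 1842 and 162 bp upstream (0.86, 0.79 and 0.94, with overlapping arrays at the first), and the 1 called lower lay between them at 900 bp, with −1.59, −1.75 and −1.55 on the rco1Δ arrays, against −0.58, −0.82 and −1.001 on the wild type arrays. The sign of the whole FLO11 upstream difference turned when every array was given the same spread (−1.04, adjusted p = 9.77e-05) and in the deposited value table (−0.88, adjusted p = 2.78e-04).

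The contrast between upstream region and gene was taken on each array, so that it does not depend on the array's median, although it depends on the array's spread. This contrast was lower in the rco1Δ mutant at all 4 loci. At FLO9 the upstream mean minus the gene mean was −0.71, −0.10 and 0.30 on the rco1Δ arrays, against 2.35, 2.23 and 2.19 on the wild type arrays. At FLO5 it was −0.30, −0.06 and 0.01 on the rco1Δ arrays, against 2.69, 2.01 and 1.75 on the wild type arrays. Both loci thus went without the excess of the upstream mean over the gene mean that the wild type showed. At FLO1 the mean was −0.96 ± 0.18 in the rco1Δ mutant and 0.60 ± 0.22 in the wild type strain, and at FLO11, where the upstream region was already the poorer side, −1.80 ± 0.45 in the rco1Δ mutant and −0.28 ± 0.20 in the wild type strain (SD, n = 3 each). The rco1Δ and wild type arrays did not overlap at any of the 4 loci, and each exact permutation test (two-sided) gave p = 0.1, the smallest possible. The rco1Δ minus wild type difference at FLO1, −1.56, became −2.07 in the deposited table and −2.29 with equal spread. At FLO11, −1.53 became −2.53 and −3.02. At FLO5 and FLO9 these settings moved it by less than the SD between arrays. The contrast compares 2 means and does not describe the profile within a region. Upstream of FLO9 the rco1Δ mean still fell toward the start codon. It was 0.51 between 3 and 2 kb upstream, −0.56 in the next kb and −2.38 in the last kb. Upstream of FLO5 the rco1Δ means were 0.38, −0.50 and −0.51.

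**Figure D3:**
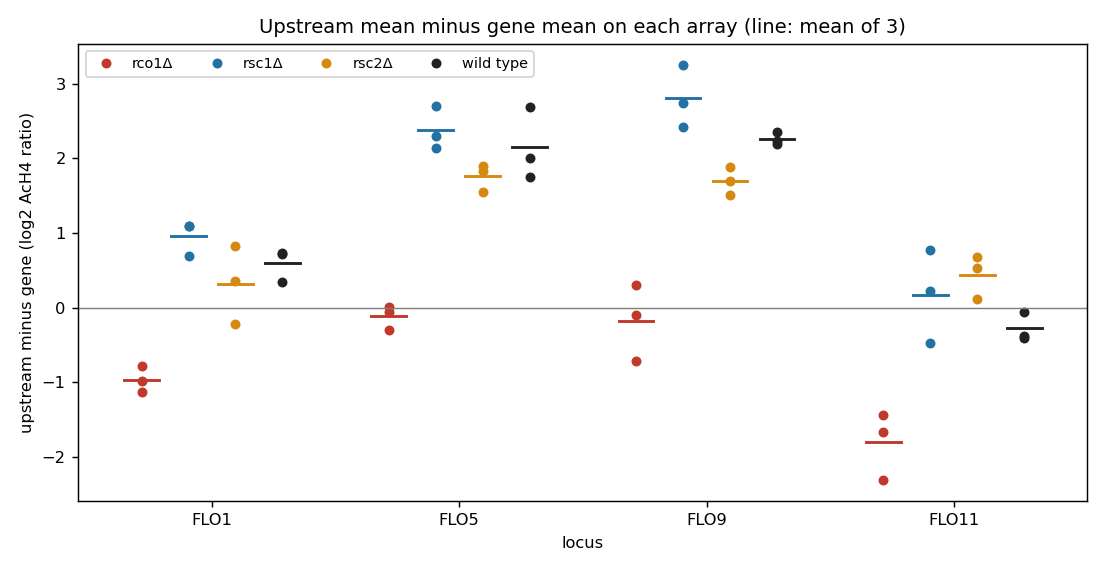
Mean log2 AcH4 ratio of the 3 kb upstream region minus that of the gene on each array at FLO1, FLO5, FLO9 and FLO11, for rco1Δ, rsc1Δ, rsc2Δ and wild type (points: arrays; line: mean of 3). The rco1Δ arrays lie below the wild type arrays at each locus, and above 0 at most by 0.30.

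The input signal of the flocculin loci also moved in the rco1Δ mutant, with lower values in the 4 genes and higher values upstream of them. No region passed the test in the main setting. FLO1 had a log2 input of −1.51, −0.06 and 0.07 on the rco1Δ arrays, against 0.42, 0.57 and 0.33 on the wild type arrays (difference −0.94 ± 0.30 SE, limma adjusted p = 0.0708). Rco1Δ replicate 1 stood apart here, and without it the difference was −0.44 (FLO1), while without replicate 2 or 3 of the rco1Δ mutant it was −1.16 or −1.23 at FLO1 and passed the test. With only the probes well above background, input passed in FLO1 (−0.97, adjusted p = 0.0236), FLO9 (−0.46, adjusted p = 0.0234) and upstream of FLO5 (0.59, adjusted p = 0.0129), FLO9 (0.77, adjusted p = 0.0131) and FLO11 (0.41, adjusted p = 0.0285). Input also passed in FLO5, in FLO9 and upstream of FLO9 and FLO11 without rco1Δ replicate 2, and upstream of FLO9 without rco1Δ replicate 3. With the replicate number as a block in the fit, it passed upstream of FLO9 (0.74, limma adjusted p = 0.0458). The same array stood apart at FLO5, where the input was −1.61, −0.20 and −0.28 on the rco1Δ arrays, against 0.10, 0.14 and −0.30 on the wild type arrays (−0.67, adjusted p = 0.142), and upstream of FLO9, where it was 1.61, 0.62 and 0.79 on the rco1Δ arrays, against 0.41, 0.20 and 0.18 on the wild type arrays (0.74, adjusted p = 0.0532). The median window differed by 0.13 in input between these strains, and 0.00% of all regions and windows were called higher and 0.0344% lower. At an unadjusted p under 0.05, limma gave 4 of the 8 flocculin regions higher and 3 lower, against 29.0% and 5.23% of all regions and windows. The differences in the remaining regions were −0.42 in FLO9, −0.32 in FLO11, 0.23 upstream of FLO1, 0.33 upstream of FLO5 and 0.39 upstream of FLO11. With the mean wild type input for every array, so that the input could not differ between strains, FLO5 (1.47), FLO9 (0.99) and FLO11 (1.38) were called higher in ratio and FLO1 was not. No flocculin region was called in input in the other 3 contrasts by limma, where at most 0.0344% of all regions and windows were called in either direction. None passed an unadjusted p under 0.05 there either, against 0.00 to 1.51% of all regions and windows in either direction. Without rco1Δ replicate 1, the 4 gene differences in ratio were between 1.26 and 2.02 and all were called.

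**Figure D4:**
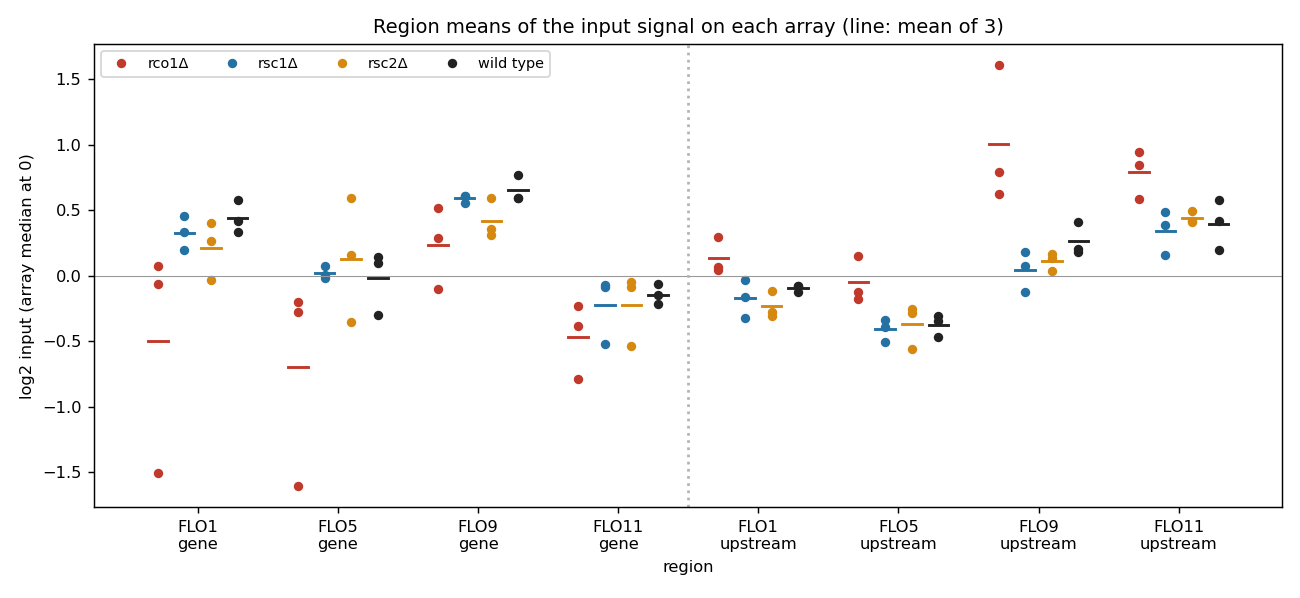
Mean log2 input signal of each gene and upstream region on each array, with the array median at 0, for rco1Δ, rsc1Δ, rsc2Δ and wild type (points: arrays; line: mean of 3). In FLO1, FLO5 and upstream of FLO9 1 rco1Δ array stands apart from the other 2.

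Many regions that are poor in AcH4 were higher in the rco1Δ mutant, so the flocculin genes were set beside others of that kind. On the rsc1Δ and rsc2Δ arrays, which take no part in this comparison, all 4 genes and the FLO11 upstream region fell in the range of the 580 poorest windows. Of those 580 windows, 82.9% were called higher in the rco1Δ mutant and 3.45% lower, with a median difference of 0.91 and quartiles of 0.48 and 1.43. The median absolute deviation was 0.53 to 0.69 on the rco1Δ arrays and 1.08 to 1.14 on the wild type arrays. Poor windows lie below the array median, where a narrower spread gives higher values. The part of that spread in these shares was not tested, and the poor windows were not compared at equal spread. The differences of FLO5 (2.14) and FLO11 (1.71) lay above the upper quartile and those of FLO1 (1.39) and FLO9 (1.41) just below it. The windows were not matched to the genes in level or in probe number. On the rsc1Δ and rsc2Δ arrays the poor windows reached up to −0.84. The genes there had means of −1.13 (FLO1), −1.59 (FLO9), −1.79 (FLO11) and −2.34 (FLO5). The FLO11 upstream region (0.18) lay below the lower quartile. The 10 kb beyond the loci differed at some flanks. On the side away from the nearer chromosome end, the mean ratio was −0.91 ± 0.18 in the rco1Δ mutant and 0.14 ± 0.07 in the wild type strain beside FLO11, and 0.34 ± 0.11 in the rco1Δ mutant and 0.93 ± 0.05 in the wild type strain beside FLO9 (SD, n = 3 each). The arrays did not overlap at either flank. Beside FLO1 and FLO5 the flank on that side differed by −0.23 and 0.06, with overlapping arrays. Toward the chromosome end the difference was −0.90 beside FLO5, from 2 probes, and −0.53 beside FLO9, both without overlap, and 0.11 beside FLO11, with overlap.

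In the rsc2Δ mutant 1 flocculin gene, FLO9, was called in the main setting, and it was called in 9 of 14 alternatives. FLO9 read −0.97, −1.10 and −1.09 on the rsc2Δ arrays, against −2.14, −1.96 and −2.05 on the wild type arrays, so no arrays of these strains overlapped. The difference was 1.00 ± 0.13 (SE, limma adjusted p = 4.41e-04), where 4.09% of all regions and windows were called higher and 5.40% lower. No window of 4 kb had a larger one, but the windows were not matched to FLO9 in probe number. FLO9 rests on 5 probes, and the call was lost under plain background subtraction (0.71, adjusted p = 1), normexp correction (0.53), loess (0.46), the deposited table (0.67) and with only the probes well above background (0.59, adjusted p = 0.158), with adjusted p between 5.90e-05 and 1 over all alternatives. With plain subtraction, normexp, loess or the deposited table, 0% of all windows were called in either direction in this contrast. With only the probes well above background, 0.867% of the windows were called higher and 0.798% lower. Within the only scan that held both strains, the FLO9 difference was 1.08 (1 rsc2Δ array and 2 wild type arrays), and with scan as a random block it was 0.97. The rise lay in the first kb. At 774 bp after the start codon (chr1:27166-27222) the ratio was −0.52, −0.22 and −0.32 on the rsc2Δ arrays, against −1.92, −2.67 and −2.45 on the wild type arrays (1.99 ± 0.28 SE, limma adjusted p = 0.00291). The IP signal of that probe was well above background on 2 of the 3 wild type arrays. The other 3 probes of the first kb differed by 0.76 to 1.23 and the probe at 2528 bp by 0.08, none of them called. The input of FLO9 was lower by a difference of −0.23 in the rsc2Δ mutant and was not called.

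The other flocculin genes were not called in the rsc2Δ mutant. FLO1 read −1.06, −0.25 and −0.67 on the rsc2Δ arrays, against −1.32, −1.35 and −1.05 on the wild type arrays (0.58 ± 0.18 SE, limma adjusted p = 0.0506), and was called in 3 of 14 alternatives and without rsc2Δ replicate 1 (0.78, adjusted p = 0.0211). One of its probes, at 3168 bp (chr1:206546-206597), was called, with −0.73, 0.22 and 0.15 on the rsc2Δ arrays, against −1.76, −1.84 and −1.45 on the wild type arrays (1.56 ± 0.33 SE, limma adjusted p = 0.0448). This and the FLO9 probe were the 2 of 72 flocculin probes called higher, against 0.154% of all probes, and 0 were called lower by limma, against 0.374%. At an unadjusted p under 0.05 there were 17 higher and 9 lower, against 6.36% and 7.78% of all probes. FLO11 went the other way, with −2.05, −1.68 and −2.07 on the rsc2Δ arrays, against −1.31, −1.25 and −1.37 on the wild type arrays (−0.62 ± 0.21 SE, limma adjusted p = 0.0699). All 3 rsc2Δ arrays were below all 3 wild type arrays, and the difference was called when only these 6 arrays entered the fit (adjusted p = 0.00734) or when rsc2Δ replicate 2 was left out (−0.75). Within the shared scan FLO1 differed by 0.28 and FLO11 by −0.77. FLO5 differed by 0.07 ± 0.17 (adjusted p = 0.835). Upstream, the difference was 0.43 at FLO9 (adjusted p = 0.0676), 0.30 at FLO1, −0.32 at FLO5 and 0.10 at FLO11. In the last kb before the start codon it was 0.74 at FLO1 (adjusted p = 0.00538) and −0.58 at FLO5 (adjusted p = 0.0468).

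**Figure D5:**
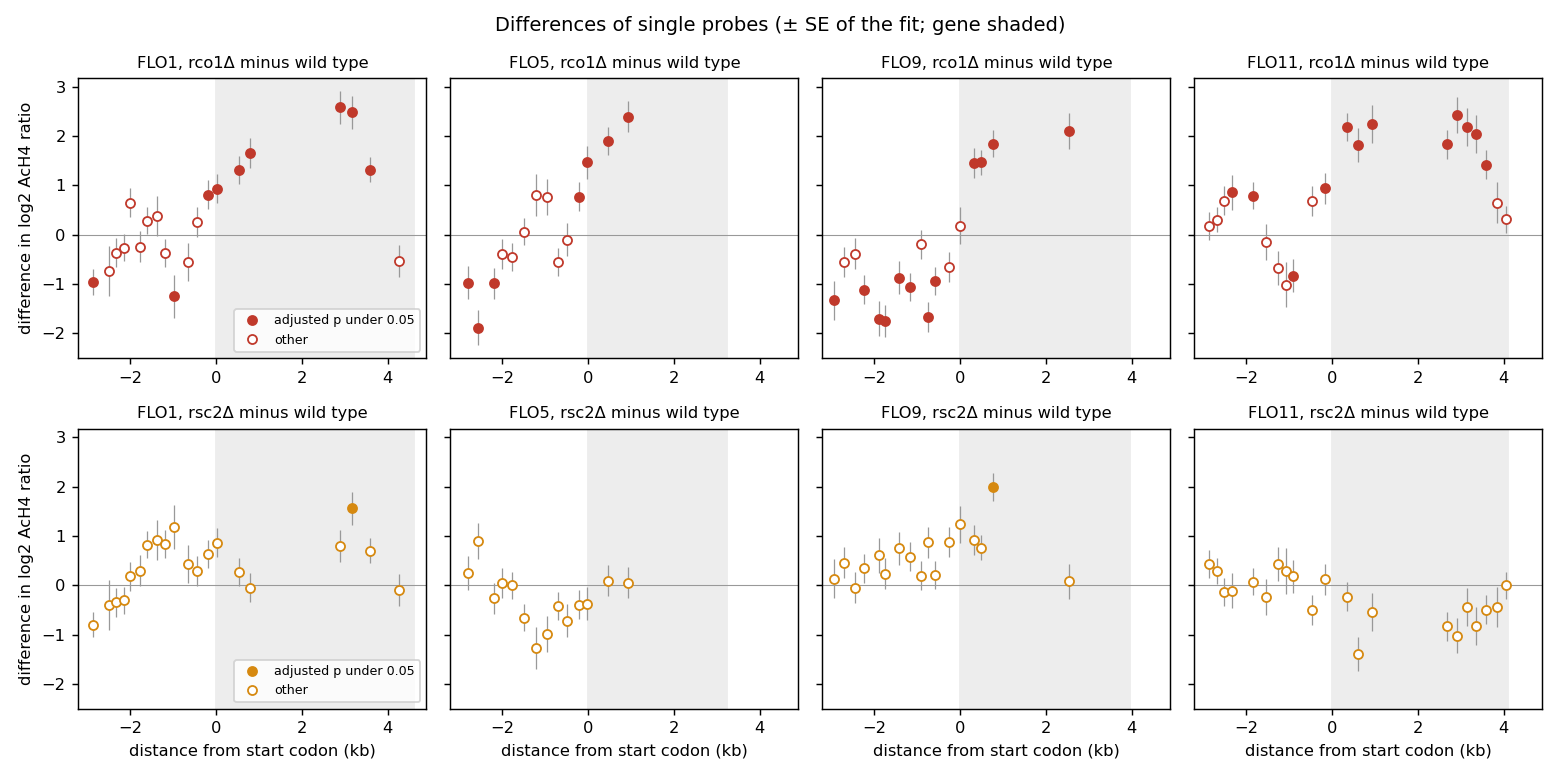
Difference in log2 AcH4 ratio from wild type at each probe of FLO1, FLO5, FLO9 and FLO11 against the distance from the start codon in kb, for rco1Δ (upper row) and rsc2Δ (lower row), with the SE of the fit. Filled points passed an adjusted p under 0.05, which were 26 higher and 14 lower in rco1Δ and 2 higher in rsc2Δ.

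No flocculin probe or region was called in the rsc1Δ mutant by limma, where 0.0482% of all probes and 0.894% of all regions and windows were called higher, and 0.0603% and 0.894% lower. The largest region difference was upstream of FLO9, with 0.49, 0.88 and 0.64 on the rsc1Δ arrays, against 0.21, 0.27 and 0.14 on the wild type arrays (0.46 ± 0.14 SE, limma adjusted p = 0.12). No rsc1Δ array reached down to a wild type array there, and 2 of 15 alternatives called it. Limma gave 3 flocculin probes higher and 2 lower at an unadjusted p under 0.05, against 4.39% and 3.66% of all probes, and 1 of 8 regions higher, against 292 of all 2908 regions and windows. The 4 genes differed by −0.36 (FLO1), −0.26 (FLO5), −0.08 (FLO9) and −0.34 (FLO11), and the arrays overlapped in each. In the scan shared with wild type the 4 gene differences were between 0.02 and 0.12.

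The rsc mutants were also compared with each other. FLO1 read −1.32, −1.81 and −1.68 on the rsc1Δ arrays, against −1.06, −0.25 and −0.67 on the rsc2Δ arrays, a difference of −0.94 ± 0.18 (SE, limma adjusted p = 0.00359). FLO9 read −1.93, −2.37 and −2.10 on the rsc1Δ arrays, against −0.97, −1.10 and −1.09 on the rsc2Δ arrays, a difference of −1.08 ± 0.13 (SE, limma adjusted p = 1.54e-04). Both were lower in the rsc1Δ mutant, without overlap, where 3.92% of all regions and windows were called lower and 5.43% higher. Within each of 3 scans, which held 1 array of both mutants, the difference was −0.26, −1.56 and −1.005 at FLO1 and −0.96, −1.27 and −1.02 at FLO9. The FLO1 call was kept in 7 of 14 alternatives and the FLO9 call in 9 of 14, with adjusted p up to 0.999 and 0.782. With plain subtraction, normexp, loess or the deposited table, at most 0.0345% of all windows were called in either direction in this contrast. Of the 72 probes 3 were called lower, 2 in FLO1 and 1 in FLO9, against 0.448% of all probes, and 0 higher by limma, against 0.494%. At an unadjusted p under 0.05 there were 14 lower and 4 higher, against 5.47% and 6.60% of all probes. The 3 calls were lost (0 probes) under plain background subtraction, normexp, loess, the deposited table, equal spread and the mean wild type input. FLO5 (−0.33, adjusted p = 0.238), FLO11 (0.28, adjusted p = 0.446) and the 4 upstream regions were not called. The contrasts of the mutants share their wild type or mutant arrays and are not independent of each other.

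Over the 12 arrays the gene means moved together to different degrees. Pearson's r was 0.93 between FLO5 and FLO11, 0.92 between FLO1 and FLO9, 0.90 between FLO1 and FLO5, 0.79 between FLO5 and FLO9, 0.76 between FLO1 and FLO11 and 0.61 between FLO9 and FLO11. The rco1Δ arrays lay above the other 9 in each gene, but only narrowly in FLO1 and FLO9. There the lowest rco1Δ array read −0.06 and −0.86, against −0.25 and −0.97 on the highest rsc2Δ array. The correlations are therefore a description of the levels of the rco1Δ and rsc2Δ arrays. Of the windows more than 20 kb away, 307 had an r over 0.9 with FLO5 and 314 with FLO11, against 12 each with FLO1 and FLO9. The windows most alike, in sacCer1 positions, were chr12:616001-620000, chr14:748001-752000 and chr10:628001-632000 for FLO1 (r of 0.95 to 0.96). For FLO5 they were chr15:996001-1000000, chr2:468001-472000 and chr2:84001-88000 (all 0.98). For FLO9 they were chr14:764001-768000, chr16:708001-712000 and chr10:24001-28000 (0.92 to 0.96), and for FLO11 chr12:556001-560000, chr2:176001-180000 and chr4:696001-700000 (0.98 to 0.99). The files pair no probe with a gene name, so the genes in these windows, and the regulators of flocculation, are not described here.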

How the data were processed

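Scanner files of 12 Agilent yeast 4x44K arrays were used. Per the file headers, the deposited intensity values were made with Agilent Feature Extraction 10.5.1.1, and the processed signals are background-subtracted and dye-normalized. The deposited table of log2 ratios served as an alternative. For its normalization the paper describes a median step on each array, then an Aquantile step across them, both with limma. On every array the table correlated at 1 with the ratios after plain background subtraction. Its median absolute deviation was 0.81 to 0.89 on all arrays, so their spread was near equal. The table is therefore not independent of the alternatives with plain subtraction and with equal spread. Comparison with the scanner signals showed that its values follow IP over input.

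Ratios of red over green processed signal were taken to log2 and centered on the array median, and spots flagged as outliers were left out. Input was the log2 green signal with the nuclear median at 0. Means over the 8 flocculin regions and 2900 windows of 4 kb (at least 3 probes; FLO5, with 2, was kept), and separately all 41480 nuclear probes, were fitted on all 4 strains with limma 3.58.1 under R 4.3.3 (lmFit, then eBayes). P-values were adjusted over all features of a contrast (Benjamini-Hochberg) and called under 0.05. Single values were compared by exact permutation tests. In each locus and contrast, the called probes with the largest rise and the largest fall were named by rule, and others were chosen after their values were seen. The members, lists and tests were chosen with earlier results of these data known. The precision is limited by 3 arrays a strain. Alternatives covered background, normalization, scaling, dim and bright probes, flags, blocks, input, windows and single arrays.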

Additional observations from a re-analysis of the deposited data

Results flagged for a closer look

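The rsc1Δ and rsc2Δ mutants differed from each other at 2 genes and 3 probes by the direct limma test of the difference. The rsc1Δ minus rsc2Δ difference in log2 ratio was −0.94 over FLO1 (adjusted p = 0.00359) and −1.08 over FLO9 (adjusted p = 1.54e-04). At single probes it was −1.54 at 2892 bp of FLO1 (adjusted p = 0.033), −2.16 at 3168 bp of FLO1 (adjusted p = 0.00391) and −1.95 at 774 bp of FLO9 (adjusted p = 0.0021). All 3 rsc1Δ arrays lay below all 3 rsc2Δ arrays in both genes. The 3 probe calls were lost (0 probes) under plain background subtraction, normexp, loess, the deposited table, equal spread and the mean wild type input.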

How the results depend on the processing

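Of 656 alternatives for the region differences in ratio, 610 kept their side of the threshold. These 610 include 53 uncalled values whose sign turned. Another 20 lost a call and 23 gained one. The last 3, not called in the main setting, turned sign and were called. The causes were not tested. In the rco1Δ mutant the gene differences ranged over 0.45 to 2.22 (FLO1), 0.87 to 2.39 (FLO5), 0.52 to 1.68 (FLO9) and 0.68 to 1.98 (FLO11). Wild type input ended the calls at FLO1 (0.45) and upstream of FLO9 (−0.28) and gave one upstream of FLO11 (0.54). Plain background subtraction ended the FLO9 call (0.85). Upstream calls appeared with the deposited table at FLO1 (−0.67), FLO5 (−0.44) and FLO11 (−0.88), with equal spread at FLO1 (−0.81) and FLO11 (−1.04), with loess (−0.29), well-measured probes only (−0.62) or 1 kb (0.47) at FLO5, and without bright input probes at FLO11 (0.40). The rsc2Δ difference at FLO9 was not called with plain subtraction (0.71), normexp (0.53), loess (0.46), the table (0.67) or well-measured probes (0.59). With plain subtraction, normexp, loess or the table, 0% of all windows were called in that contrast and at most 0.0345% between rsc1Δ and rsc2Δ in either direction. Between rsc1Δ and rsc2Δ, calls ended at FLO1 with plain subtraction (−0.90), normexp (−0.59), loess (−0.48), the table (−0.56), equal spread (−0.78), wild type input (−0.80) and medians over probes (−0.87), and at FLO9 with plain subtraction (−1.08), normexp (−0.57), loess (−0.55), the table (−0.68) and well-measured probes (−0.73).

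The 26 probes called higher in the rco1Δ mutant became 10 with plain subtraction, 17 with normexp, 8 with loess, 10 with the deposited table and 15 with well-measured probes. The 14 called lower became 5 with normexp, 6 with loess, 9 with well-measured probes, 4 with wild type input, 9 without bright probes and 8 at an adjusted p under 0.01. With equal spread the split was 18 higher and 21 lower (against 21.5% and 22.3% of all probes). With the deposited ratios it was 10 and 19 (13.1% and 19.3%), and with plain subtraction 10 and 12 (7.7% and 16.5%). The 2 probes higher in rsc2Δ became 0 with plain subtraction, normexp, loess, the table, equal spread or wild type input, and 1 with well-measured probes, the replicate block, only the compared arrays, an adjusted p under 0.01 or chromosome medians (chosen after seeing the data). The 3 lower in rsc1Δ than in rsc2Δ became 0 with plain subtraction, normexp, loess, the table, equal spread or wild type input.

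Leaving out 1 array at a time kept every region call. The rco1Δ differences were then 1.29 to 1.497 (FLO1), 2.02 to 2.34 (FLO5), 1.26 to 1.52 (FLO9), 1.44 to 1.89 (FLO11) and −1.15 to −0.90 (FLO9 upstream), with 21 to 27 probes higher and 9 (without rco1Δ replicate 1) to 12 lower. Upstream of FLO1 they were −0.27 to 0.02, of FLO5 −0.26 to 0.02 and of FLO11 0.10 to 0.30, called without wild type replicate 1. The rsc2Δ difference at FLO9 was 0.95 to 1.04, with 1 to 2 probes higher and 0 to 2 lower, the 2 without rsc2Δ replicate 2. FLO1 (0.37 to 0.78) was called without rsc2Δ replicate 1, FLO11 (−0.75 to −0.55) and FLO9 upstream (0.30 to 0.55) without rsc2Δ replicate 2, and FLO5 upstream (−0.46 to −0.18) without wild type replicate 2. Between rsc1Δ and rsc2Δ the ranges were −1.14 to −0.73 (FLO1) and −1.18 to −0.96 (FLO9), with 2 to 3 probes lower. Input differences were called in 13 of 352 alternatives, and 38 others turned sign. Repeat numbers did not pair the arrays (r of −0.32 to 0.31, over 0.1 in 2 of 18 same-number pairs), and the replicate block changed no region call in ratio and gave a call in input upstream of FLO9 (0.74). Dim signal limits the values, since only 42 of the 72 probes were well above background throughout.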
